A study of Mus musculus with 4 samples.

Results

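The genes of fibroblast growth factor (FGF) signalling were followed in the embryonic mouse telencephalon, in libraries labelled wild type and libraries labelled as lacking STING, an adaptor of cytosolic DNA sensing, in neural progenitors. The rule that picks them uses gene symbols and no measured value, though it was set with earlier results of these data known. It takes the FGF ligands Fgf1 to Fgf23, the receptors Fgfr1 to Fgfr4 and Fgfrl1, the binding proteins Fgfbp1 and Fgfbp3, the Sprouty (Spry) and Spred genes, Dusp6, Il17rd and the transcription factor genes Etv1, Etv4 and Etv5. Of the 27293 genes listed for all 4 libraries, 37 fitted this rule. Fgf4, Fgf6, Fgf20 and Spry3 were not analysed here.

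RNA was taken at embryonic day 13 (E13) from telencephalic tissue of C57BL/6 mice, and each of the 4 libraries was made from 2 ug of total RNA. The 2 control libraries (WT 1 and WT 2) carry the genotype label WT, and the other 2 (cKO 1 and cKO 2) carry the label STINGf/f;Nestin-Cre, in which Cre recombinase under the Nestin promoter removes the floxed part of the STING gene. The Nestin promoter is active in neural progenitors, so blood cells, microglia and most cells of the meninges are not its targets. The title of WT 2 has the abbreviation nes where that of WT 1 has wt, and whether WT 2 carried Nestin-Cre is not known. Nothing in the labels or methods says that the libraries came from separate embryos, so the p-values measure the spread between these libraries. WT 1 and WT 2 differ in their Y-linked counts (given with the depth) and so are not repeats of one sample. The cKO libraries differ as well, with 262 and 1166 counts of the ventral marker gene Nkx2-1 in cKO 1 and cKO 2. Whether they came from separate embryos is not known, and part of their spread may be technical.

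FGF ligands bind receptor tyrosine kinases together with heparan sulfate and switch on the Ras and MAP kinase cascade, which induces the ETS transcription factors Etv1, Etv4 and Etv5. The same cascade induces its own inhibitors, among them the Sprouty proteins, the MAP kinase phosphatase Dusp6 and the membrane protein Il17rd (Sef). In the early telencephalon, Fgf8, Fgf17 and Fgf18 are made at the rostral midline and help to set the rostral to caudal pattern of the cortex, while Fgf2 (basic FGF) keeps cortical progenitors dividing.

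The 4 libraries were alike in depth, with 17209654 to 18533391 counts on genes, and levels are given as CPM, counts scaled to a common library size. A gene with 0 counts could still have a level of up to 0.162 to 0.174 CPM (3 counts), a limit that covers counting error only. Tmem173, the older symbol of the STING gene, had 20 and 19 counts in WT 1 and WT 2, next to 18 and 22 in cKO 1 and cKO 2. The count covers the whole gene, and why it was alike under both labels was not tested. The genotypes here rest on the labels. The summed counts of 4 Y-linked genes were 0 in WT 2 and 2735, 3002 and 1848 in WT 1, cKO 1 and cKO 2, so WT 2 stood apart from the other libraries in this. WT 1 stood apart in the markers of tissue at the midline and around the cortex. Its summed level of 9 choroid plexus markers was 62.2 CPM, while the other libraries (WT 2, cKO 1, cKO 2) had 10.4, 7.21 and 8.95 CPM, and Cldn2 had 12 counts in WT 1 and 0 in the other libraries. The sum over 13 markers of meninges and mesenchyme was 339 and 75.8 CPM in WT 1 and WT 2, next to 104 and 58.0 in cKO 1 and cKO 2, and that over 9 markers of the cortical hem was 97.4, 35.5, 47.6 and 39.3 CPM in the same order. Every one of these markers had its highest level in WT 1. The defining markers of the labelled tissue were present: the cortical progenitor list summed to between 1826 and 2061 CPM and the cortical neuron list to between 4664 and 5646 CPM. In such bulk RNA, fewer cells of a type and less RNA per cell cannot be told apart.

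No FGF gene passed the thresholds of the study in the edgeR test used here. The thresholds were a fold change of at least 2 with an unadjusted p of at most 0.05. The study's own fold changes and p-values were not used. Of the 37 genes, 29 passed the filter on low counts and were tested, and the other 8 (Fgf1, Fgf5, Fgf8, Fgf10, Fgf16, Fgf21, Fgf23 and Fgfbp1) had too few counts. Over all 16145 genes tested, 0.669% passed the thresholds with a lower level in cKO and 0.142% with a higher level. At an adjusted p under 0.05, the quasi-likelihood test of edgeR, adjusted by Benjamini-Hochberg, called 0 FGF genes and 0% of all genes, and the adjusted p of every FGF gene tested was at least 0.9999. At an unadjusted p under 0.05 it gave 1 FGF gene, Etv1, and 1.23% of all genes, while the DESeq2 Wald test gave 2 FGF genes, Etv1 and Spry1, among 127 of all genes, and 0 FGF genes after adjustment. The log2 fold change of cKO over WT was below 0 for 20 of the 29 genes (69.0%), against 52.1% of all genes tested. The count was 18 of 30 without WT 1 and 21 of 31 without WT 2 (30 and 31 being the genes then tested). The median was -0.23 over the FGF genes and -0.01 over all genes. Grouped by role, the medians ran from 0.15 over the receptors to -0.65 over the ETS factors, as the plot of fold changes by role shows.

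**Figure D1:**
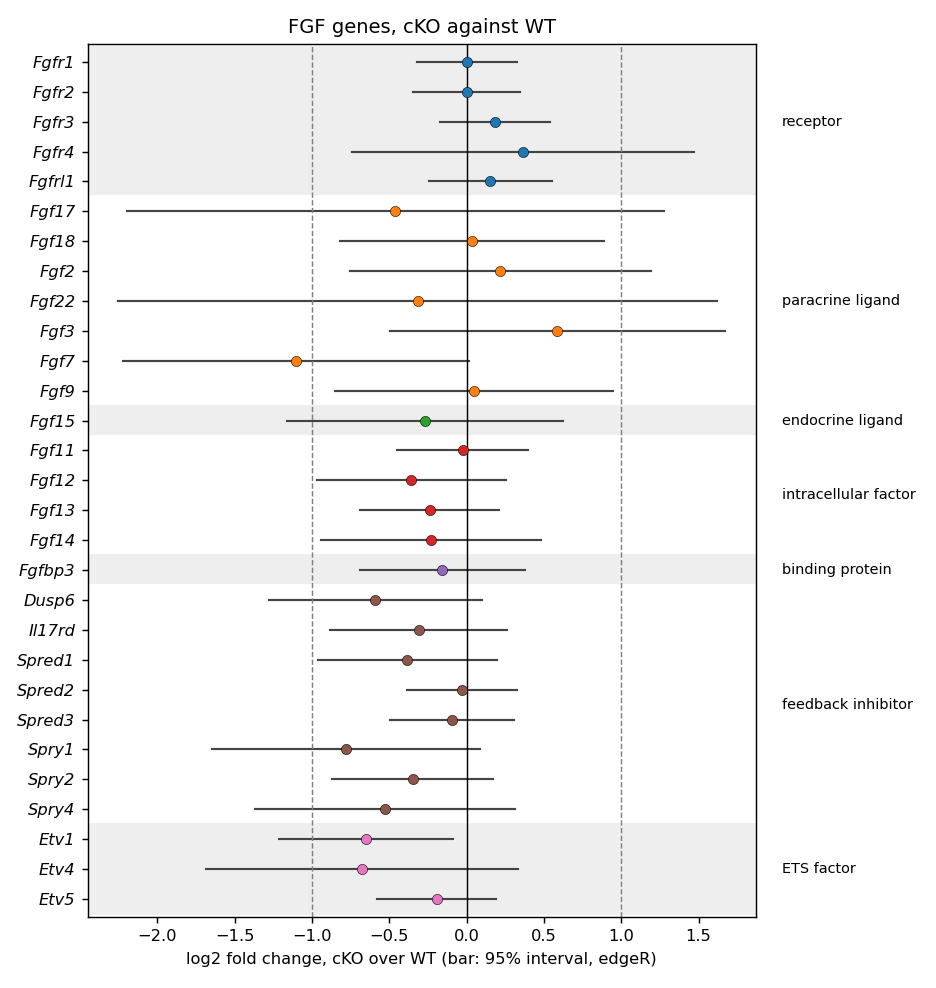
Log2 fold change of cKO over WT (horizontal axis) for the 29 FGF genes tested, grouped by role, with the 95% interval from edgeR as bars and dashed lines at a fold change of 2 in either direction. The 5 receptors lie at or above 0, the 3 ETS factors and 8 feedback inhibitors lie below 0, and of all 29 intervals only that of Etv1 leaves out 0.

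The receptor genes other than Fgfr4 were among the highest FGF genes, and none of the 5 had a log2 fold change below 0. Fgfr1, a receptor of neural progenitors, had 168 and 164 CPM in WT 1 and WT 2, next to 165 and 168 in cKO 1 and cKO 2. These 4 values lay within a narrow band, and the log2 fold change was 0.00 with a 95% interval from -0.32 to 0.33. Fgfr2 had 85.7, 75.7, 83.1 and 78.4 CPM in the same order of libraries. Its groups overlapped, and its log2 fold change was 0.00 with an interval from -0.34 to 0.35. Fgfr3, whose expression in the cortex is graded from caudal to rostral, had 172, 155, 173 and 199 CPM. Both cKO libraries of Fgfr3 were above both WT libraries, though cKO 1 exceeded WT 1 by less than 1 CPM, and the log2 fold change was 0.18 (standard error 0.15, interval -0.17 to 0.54). Fgfrl1, a receptor that lacks the kinase domain, had 25.1, 25.4, 27.9 and 28.3 CPM. The 2 libraries of each label of Fgfrl1 nearly coincided, and the log2 fold change was 0.15 (standard error 0.17, interval -0.24 to 0.55). Fgfr4 was scarce, with 14 and 16 counts in the WT libraries and 16 and 23 in the cKO libraries, and a log2 fold change of 0.36 (standard error 0.48). The groups of Fgfr3, Fgfr4 and Fgfrl1 did not overlap in CPM, with cKO above WT. They were 3 of the 29 FGF genes (10.3%), and 11.0% of all genes tested had that order. For Fgfr4 the order rests on scaling, since WT 2 and cKO 1 had 16 counts each.

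Levels of different genes were compared per kilobase of exon, as the mean over the 4 libraries. Fgfr3 was the highest FGF gene at 24.4 CPM per kilobase, and its lowest library (21.7) was above every library of every other FGF gene. Fgf13 (18.5), Fgfr1 (16.8), Fgfbp3 (16.5), Spred2 (14.3) and Fgf11 (14.1) followed, and the ranges of neighbours in this order overlapped. After Fgf11 came Etv5 at 11.2, whose highest library (12.3) was below the lowest of Fgf11 (12.8). From Etv5 down to Spry1 (4.03) each gene's range overlapped that of the next. Fgf15 (4.85) was the highest secreted ligand, and Fgf18 (2.31) and Fgf17 (2.21) came next among the ligands. Fgf9 stood at 0.674 and Fgf2 at 0.295 CPM per kilobase, and their ranges did not overlap. By exons of the reference annotation, Fgfr1 and Fgfr3 share bases with a gene on the opposite strand (998 bases of Fgfr3 with G630022F23Rik), and Fgfr2 shares 314 bases with Ctbp2 on its own strand. Whether strand was used in counting is not given in the sources used here, so reads from such overlaps cannot be assigned. The same holds for Fgf15, which shares 761 bases with Gm26793, for Spred3, which shares 202 with Ggn, and for stretches of 82 to 220 bases in Fgf10, Fgf14 and Fgf22.

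**Figure D2:**
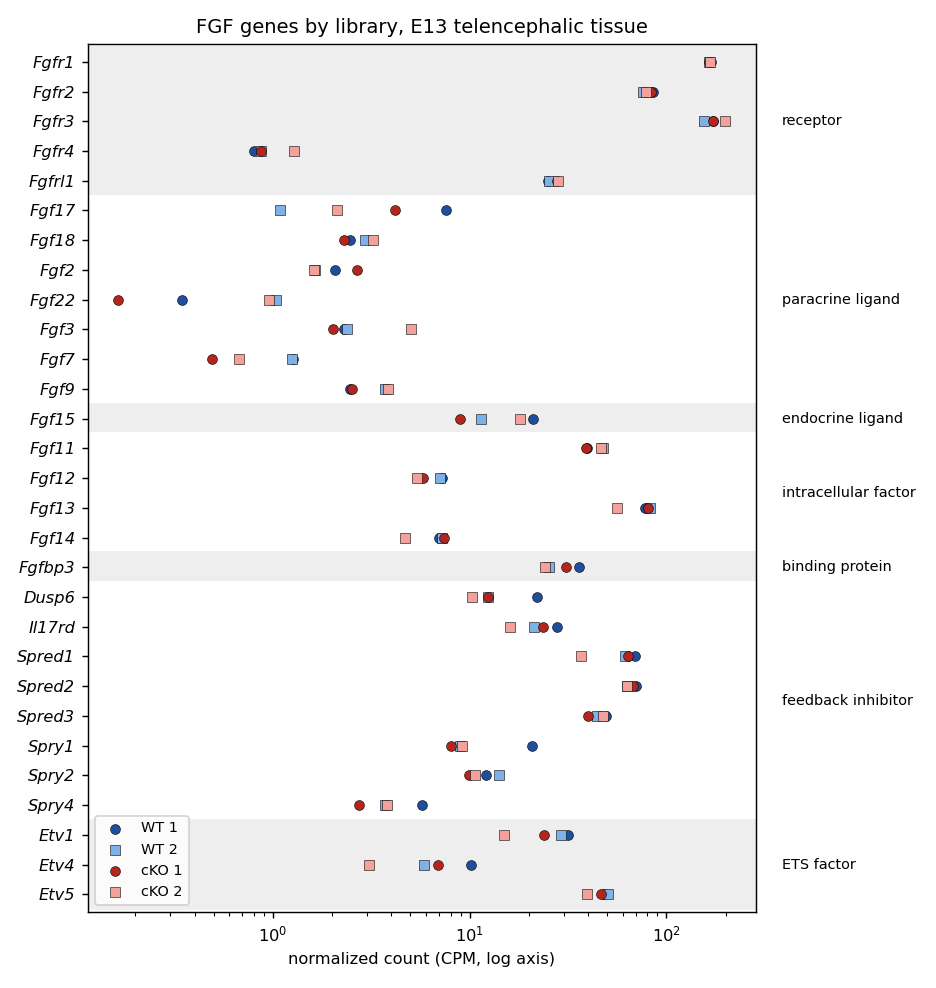
Level of the 29 FGF genes tested in every library, in CPM on a logarithmic axis and not per kilobase, with genes grouped by role and one marker per library. The receptors Fgfr1, Fgfr2 and Fgfr3 sit high with their 4 points close together, while the points of Fgf17 (1.09 to 7.59), Etv4 (3.08 to 10.2) and Fgf22 (0.164 to 1.03) are spread.

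Of the 12 paracrine ligands, 7 were tested, and their log2 fold changes lay on both sides of 0 (3 below, 4 above, median 0.03). Fgf17, a ligand of the rostral midline, had 7.59 and 1.09 CPM in WT 1 and WT 2, next to 4.15 and 2.13 in cKO 1 and cKO 2. The WT libraries were the highest and the lowest of the 4, 6.99-fold apart, with both cKO libraries between them. The log2 fold change of -0.46 (standard error 0.75) was therefore smaller than the spread. Without WT 1 it was 1.53, and without WT 2 it was -1.26, so either direction could be had by leaving out 1 control library. Fgf8, the main rostral organiser, had 16 and 0 counts in WT 1 and WT 2, next to 8 and 1 in cKO 1 and cKO 2, and was too low to test. Fgf8 and Fgf17 thus had the same order of libraries.

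Fgf18, also of the rostral midline, had 2.47 and 2.93 CPM in WT 1 and WT 2, next to 2.30 and 3.25 in cKO 1 and cKO 2. Its order of libraries was not that of Fgf17, and the log2 fold change was 0.03 (standard error 0.37). Fgf3, made with Fgf8 at several signalling centres, had 2.30, 2.39, 2.02 and 5.04 CPM. Only cKO 2 was high, 2.49-fold above cKO 1, and the log2 fold change was 0.59 (standard error 0.47). Without cKO 1 it was 1.102, and without cKO 2 it was -0.20. Fgf15, an endocrine ligand in the gut that the embryonic forebrain also makes, had 20.99, 11.46, 8.963 and 17.96 CPM. The highest library was WT 1 and the lowest cKO 1, the cKO libraries were 2.00-fold apart, and the log2 fold change was -0.27 (standard error 0.39). The 8 ventral telencephalic markers summed to 881 and 840 CPM in WT 1 and WT 2, next to 533 and 892 in cKO 1 and cKO 2, so cKO 1 was lowest in these too, and their part in the Fgf15 value was not tested.

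Fgf2 was low, with 2.07, 1.63, 2.68 and 1.62 CPM in WT 1, WT 2, cKO 1 and cKO 2. Its groups overlapped, and its log2 fold change was 0.22 (standard error 0.42). Fgf2 shares 640 exon bases with Nudt6 on the opposite strand. Fgf9, a ligand made by cortical neurons and glia, had a log2 fold change of 0.05 (standard error 0.39), and its counts were 43 (WT 1), 68 (WT 2), 46 (cKO 1) and 69 (cKO 2). Fgf7 (keratinocyte growth factor), a ligand made by mesenchymal cells, had 22 and 23 counts in WT 1 and WT 2, next to 9 and 12 in cKO 1 and cKO 2. Both cKO libraries of Fgf7 were below both WT libraries, at 0.582 ± 0.127 CPM against 1.26 ± 0.0114 (SD, n = 2 each). The log2 fold change of -1.10 (standard error 0.48, interval -2.22 to 0.01) was the lowest of the FGF genes tested. Its unadjusted p was 0.0525 and its adjusted p 0.9999 from edgeR, while the DESeq2 Wald test gave an unadjusted p of 0.211. Leaving out each library in turn gave log2 fold changes of Fgf7 from -1.33 (without cKO 2) to -0.90 (without cKO 1). The WT libraries of Fgf7 differed by 1.01-fold, while the sum of the meningeal and mesenchymal markers was 4.47-fold higher in WT 1 than in WT 2. These markers were not alike in this. Prrx1 and Twist1 were 1.51-fold and 1.38-fold higher in WT 1 than in WT 2, the smallest ratios of the list. The other markers ran from 2.53-fold (Foxc1) to 20.5-fold (Fmod). Twist1 had 13 and 10 counts in WT 1 and WT 2, next to 5 and 5 in cKO 1 and cKO 2. The part of such tissue in the Fgf7 value was not tested. Fgf22, a ligand of synapse formation, had 6, 19, 3 and 17 counts, and its libraries of one label differed by 2.99-fold in WT and 5.80-fold in cKO, in both labels with the second library higher.

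The remaining ligands were at the edge of detection. Fgf10 had 8, 5, 14 and 3 counts in the order WT 1, WT 2, cKO 1 and cKO 2. Fgf1, Fgf5, Fgf16, Fgf21 and Fgf23 had fewer than 10 counts in every library, with a range of 0 to 8. All 6 counts of Fgf16 were in WT 1, and Fgfbp1 had 11 counts in WT 1 and at most 1 in each other library. Fgf21 and Fgf23, the endocrine ligands of liver and bone, had at most 1 and 6 counts.

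The 4 intracellular FGF homologous factors are not secreted but bind voltage-gated sodium channels, and their log2 fold changes were all below 0 (median -0.23). Fgf13, which also steadies microtubules in migrating neurons, had 78.3 and 82.6 CPM in WT 1 and WT 2, next to 80.5 and 55.8 in cKO 1 and cKO 2. Only cKO 2 was low, and the log2 fold change of -0.24 (standard error 0.20) was 0.01 without it. Fgf12 had 7.25, 7.06, 5.79 and 5.37 CPM. Its groups did not overlap, and the log2 fold change was -0.36 (standard error 0.27). Fgf14 and Fgf11 had log2 fold changes of -0.23 (standard error 0.31) and -0.03 (standard error 0.18). Fgfbp3, a carrier that frees FGFs from heparan sulfate, had 36.2, 25.3, 30.9 and 24.2 CPM, so that the first library of each label was the higher, and its log2 fold change was -0.16 (standard error 0.23).

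All 8 feedback inhibitors and all 3 ETS factors had a log2 fold change below 0, with a median of -0.38 over the 11, but only Etv1 had an unadjusted p under 0.05. Over all genes the share below 0 was the 52.1% given above. Genes of a pathway may vary together, and whether these 11 do was not tested, so they cannot be counted as 11 independent results. The regions before the starts of the 4 FGF genes with the smallest unadjusted p are shown because ETS factors bind a GGAA core. They are RefSeq sequences of GRCm38.p6, 250 bases each on the plus strand, at chr12:38779832-38780081 for Etv1, chr2:126034408-126034657 for Fgf7, chr3:37639697-37639946 for Spry1 and chr10:99262981-99263230 for Dusp6, and capitals mark GGAA or, for the opposite strand, TTCC.
Etv1: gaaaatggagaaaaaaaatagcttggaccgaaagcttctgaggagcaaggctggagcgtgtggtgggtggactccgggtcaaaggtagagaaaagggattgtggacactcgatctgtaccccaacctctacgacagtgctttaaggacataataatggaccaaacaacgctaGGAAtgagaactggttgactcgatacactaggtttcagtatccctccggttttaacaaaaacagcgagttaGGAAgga
Fgf7: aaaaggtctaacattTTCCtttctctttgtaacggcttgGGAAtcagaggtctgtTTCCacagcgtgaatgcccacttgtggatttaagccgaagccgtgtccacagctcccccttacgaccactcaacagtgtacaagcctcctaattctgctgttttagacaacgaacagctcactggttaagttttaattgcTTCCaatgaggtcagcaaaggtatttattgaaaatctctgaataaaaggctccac
Spry1: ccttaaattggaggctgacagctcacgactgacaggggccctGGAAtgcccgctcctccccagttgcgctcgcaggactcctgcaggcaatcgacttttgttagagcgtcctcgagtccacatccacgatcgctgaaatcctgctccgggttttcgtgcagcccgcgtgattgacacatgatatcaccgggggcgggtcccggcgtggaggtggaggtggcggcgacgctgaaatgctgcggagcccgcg
Dusp6: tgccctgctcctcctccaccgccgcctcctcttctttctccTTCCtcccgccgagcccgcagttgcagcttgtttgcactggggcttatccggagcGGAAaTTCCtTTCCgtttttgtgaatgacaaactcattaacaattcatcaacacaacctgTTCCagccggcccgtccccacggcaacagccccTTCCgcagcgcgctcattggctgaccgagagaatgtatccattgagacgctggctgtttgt
The Etv1 window is that of the first of 2 RefSeq starts and lies inside the gene as deposited, which begins at 38779380. The cores number 2 in Etv1, 4 in Fgf7, 1 in Spry1 and 6 in Dusp6. The median over all 32851 RefSeq promoter windows of this length was 3 cores, with a 10th percentile of 1 and a 90th of 5, and 93.4% held at least 1. Etv1, Fgf7 and Spry1 lie within these percentiles and Dusp6 above them. The longer ETS motif CCGGAAG was in 6.91% of all windows and in 1 of the 38 windows of FGF genes, that of Fgfrl1. The NF-κB motif was in 7.25% of all windows and in 4 of the 38 windows of FGF genes, 1 each of Fgf13, Fgf18, Fgfbp3 and Fgfr4. RefSeq windows were found for 29 of the 37 FGF genes, and a match describes letters only.

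Etv1 (ENSMUSG00000004151) encodes an ETS factor (GRCm38, chromosome 12, 38779380 to 38870484, plus strand). It had 553 and 535 counts in WT 1 and WT 2, next to 435 and 268 in cKO 1 and cKO 2, or 31.8, 29.1, 23.8 and 15.0 CPM. Both cKO libraries were below both WT libraries, and cKO 2 was the lower of them by 1.59-fold. The means were 30.4 ± 1.94 CPM in WT and 19.4 ± 6.21 in cKO (SD, n = 2 each). The log2 fold change was -0.65 (standard error 0.24, interval -1.21 to -0.09), a level 1.57-fold lower, with an unadjusted p of 0.0283 and an adjusted p of 0.9999 from edgeR. Leaving out 1 library at a time gave values from -1.02 (without cKO 1) to -0.34 (without cKO 2). Etv4 had 10.2 and 5.87 CPM in WT 1 and WT 2, next to 6.94 and 3.08 in cKO 1 and cKO 2. Its first library was higher than its second in both labels, by 1.74-fold in WT and 2.26-fold in cKO. The groups of Etv4 overlapped, and the log2 fold change was -0.68 (standard error 0.44). It was -1.38 without cKO 1, -1.01 without WT 2, -0.23 without WT 1 and -0.19 without cKO 2. Etv5 had 48.0, 50.5, 46.4 and 39.7 CPM. Its groups did not overlap, and the log2 fold change was -0.19 (standard error 0.17).

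Spry1 (ENSMUSG00000037211) encodes an inhibitor of receptor tyrosine kinase signalling (chromosome 3, 37639947 to 37644598, plus strand). It had 20.7 and 8.96 CPM in WT 1 and WT 2, next to 8.03 and 9.18 in cKO 1 and cKO 2. WT 1 alone was high, 2.30-fold above WT 2, and WT 2 lay between the cKO libraries. The log2 fold change was -0.78 (standard error 0.38, interval -1.65 to 0.09, unadjusted p 0.0714 and adjusted p 0.9999 from edgeR), and without WT 1 it was -0.06. Spry1 shares 710 exon bases with Gm42922 on the opposite strand. Dusp6 (ENSMUSG00000019960) encodes a phosphatase of the MAP kinase cascade (chromosome 10, 99263231 to 99267489, plus strand). It had 21.9, 12.4, 12.5 and 10.3 CPM, so WT 1 was again the one high library. The log2 fold change of -0.59 (standard error 0.30, unadjusted p 0.0835 and adjusted p 0.9999 from edgeR) was -0.12 without WT 1. Spry4 had 5.75, 3.69, 2.73 and 3.81 CPM, with WT 1 highest and the other libraries closer together, and a log2 fold change of -0.53 (standard error 0.37), or -0.18 without WT 1. The choroid plexus, meningeal and hem markers were high in WT 1 as well, and the 5 markers of the rostral midline and septum summed to 284 and 173 CPM in WT 1 and WT 2, next to 166 and 168 in cKO 1 and cKO 2. The markers were not alike in this, since Six3 (36.4 CPM in WT 1, 36.1 in cKO 2) and Sp8 (23.1 in WT 1, 22.7 in WT 2) were nearly as high in another library. The part of such tissue in the Spry1, Dusp6, Spry4, Fgf8 and Fgf17 values was not tested.

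**Figure D3:**
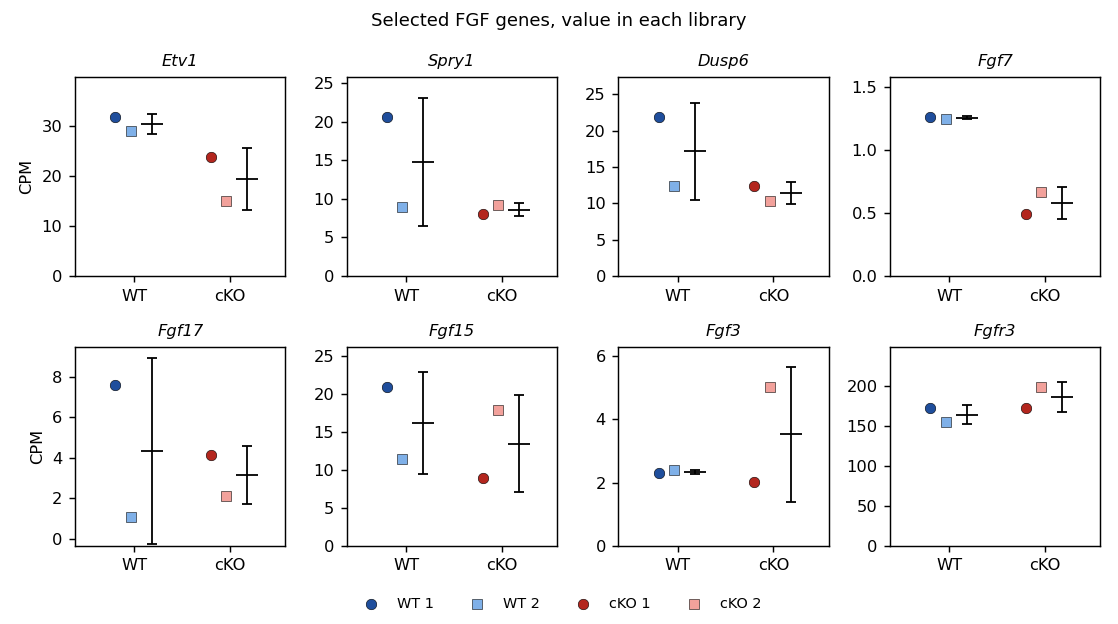
Level in CPM (vertical axis, one scale per panel) of selected FGF genes in the 4 libraries, with points for libraries and bars for the group mean and SD (n = 2). Etv1 and Fgf7 have both cKO points below both WT points, the single high point of Spry1 (20.7) and Dusp6 (21.9) is WT 1, and the SD of the WT libraries of Fgf17 is larger than their mean.

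Spry2 did not have the WT 1 pattern, with 12.1 and 14.1 CPM in WT 1 and WT 2, next to 9.89 and 10.7 in cKO 1 and cKO 2. Both cKO libraries were below both WT libraries, and the log2 fold change was -0.35 (standard error 0.23). Spred1, which recruits neurofibromin to switch off Ras, had 69.6, 61.3, 63.6 and 36.8 CPM. Only cKO 2 was low, and the log2 fold change of -0.38 (standard error 0.25) was -0.03 without it. Il17rd, which holds activated MAP kinase in the cytoplasm, had 28.0, 21.2, 23.6 and 16.0 CPM, with overlapping groups and a log2 fold change of -0.31 (standard error 0.25), which was -0.04 without cKO 2, -0.10 without WT 1 and -0.61 without cKO 1. Spred2 had 70.1, 63.4, 68.0 and 62.7 CPM and a log2 fold change of -0.03 (standard error 0.15). Spred3 had 49.1, 44.5, 40.0 and 47.7 CPM and a log2 fold change of -0.09 (standard error 0.17). For both, the libraries of one label differed by more than the group means. In all, 5 of the 29 genes (17.2%) had both cKO libraries below both WT libraries, namely Etv1, Etv5, Fgf7, Fgf12 and Spry2, against 10.8% of all genes.

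For some FGF genes a single library stood apart from the others. Of the 29 FGF genes tested, 16 had their highest level in WT 1 (25.1% of all genes), and 12 their lowest in cKO 2 (33.4% of all genes). WT 1 was at least 2-fold above WT 2 for 2 of the 29 genes (6.90%, Fgf17 and Spry1, against 4.30% of all genes), and WT 2 was that far above WT 1 for Fgf22 only (3.45%, against 1.53%). In cKO, the first library was at least 2-fold higher for Etv4 (3.45%, against 5.80% of all genes). The second was that far above the first for Fgf3, Fgf15 and Fgf22 (10.3%, against 2.52%). The median over the 11 feedback inhibitors and ETS factors was -0.18 without WT 1, -0.48 without WT 2, -0.62 without cKO 1 and -0.21 without cKO 2. The plot with libraries left out shows these roles separately.

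**Figure D4:**
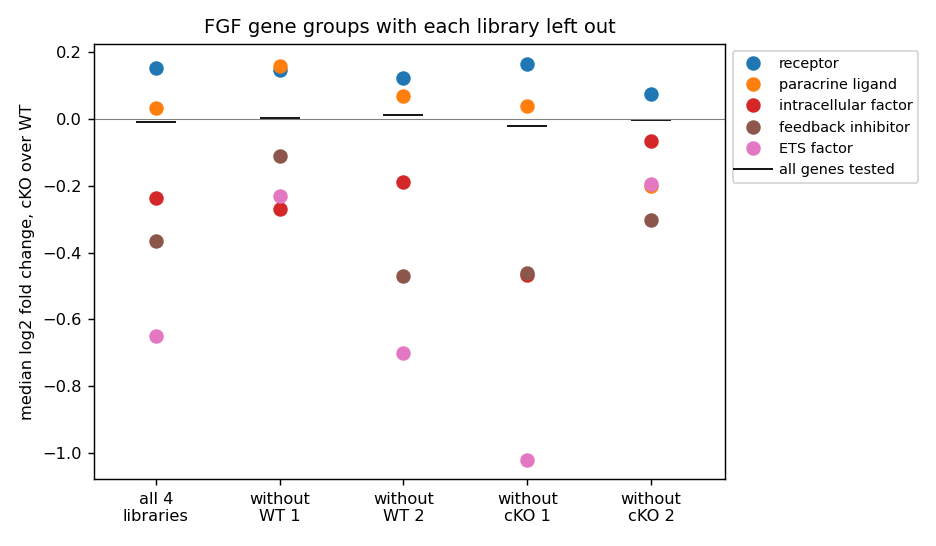
Median log2 fold change of cKO over WT (vertical axis) of the FGF genes by role, and of all genes tested (black dash), with all 4 libraries and with each library left out. The endocrine ligands and the binding proteins, with 1 gene tested each, are not plotted. The ETS factor median moves from -1.02 without cKO 1 to -0.19 without cKO 2, and the receptor median stays above 0.

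The other genes of the cascade had values closer to 0, though the difference from the feedback genes was not tested. Of 38 such genes (co-receptors, adaptors, Ras proteins, kinases and ETS factors outside the Etv group), 37 were tested. The test gave 0 past the thresholds and 0 at an unadjusted p under 0.05, and DESeq2 also gave 0 past the thresholds. Their log2 fold changes ran from -0.28 (Flrt2, a membrane protein that binds FGF receptors) to 0.21 (the phosphatase gene Dusp14), with a median of -0.06. Of the 37, 25 were below 0 and 12 above. Below 0 were also 20 of the 29 FGF genes, a like share, and 52.1% of all genes tested. Plcg1, the phospholipase bound by the receptors, averaged 286 CPM in WT and 273 in cKO. The adaptor gene Grb2 averaged 200.2 CPM in WT and 210.1 in cKO. Both cKO libraries were below both WT libraries for Plcg1 and the phosphatase gene Ptpn11 (2 of 37, where 10.8% of all genes had that order). They were above both WT libraries for Flrt1 and Dusp14 (2 of 37, where 11.0% of all genes had that order). The co-receptor genes of the endocrine ligands were scarce, with Kl at 9, 4, 3 and 1 counts and Klb at 11, 7, 12 and 5.

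Among the marker lists, 4 choroid plexus genes passed the thresholds with a lower level in cKO, Kcne2, Otx2, Aqp1 and Htr2c, of 4 tested. So did the collagen genes Col1a1 and Col1a2, of 10 meningeal and mesenchymal markers tested, and 0.669% of all genes tested. The choroid plexus markers Folr1, Kl, Sostdc1, Slc4a5 and Cldn2 did not pass the filter on low counts. Htr2c, with 4 and 7 counts in cKO 1 and cKO 2, passed it through its 101 and 18 counts in WT 1 and WT 2. The log2 fold changes of the 6 marker genes past the thresholds ran from -3.44 (Htr2c) to -1.33 (Otx2). All 6 were at least 3-fold higher in WT 1 than in WT 2. Without WT 1, the log2 fold changes were -1.66 (Htr2c), -0.67 (Aqp1), -0.31 (Otx2), -0.11 (Col1a1), 0.21 (Col1a2) and 1.24 (Kcne2). Htr2c and Aqp1 had both cKO libraries below both WT libraries, while the groups of the other genes overlapped. The endothelial genes Cdh5 (-0.54) and Flt1 (-0.64) had an unadjusted p under 0.05 without a change of 2-fold, and stood at -0.20 and -0.37 without WT 1. The 5 endothelial markers summed to 174 CPM in WT 1 and to between 113 and 130 in the other libraries, and the 5 blood markers to 1003 CPM in WT 1 and to between 428 and 654. The hem, rostral midline, ventral telencephalon, diencephalon, midbrain and isthmus, progenitor, intermediate progenitor, neuron, blood and microglia lists held 0 genes past the thresholds and 0 at an unadjusted p under 0.05 by edgeR. Ttr, Clic6, En1 and En2 were not analysed here.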

How the data were processed

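Bulk RNA-seq of 4 libraries (2 WT, 2 cKO) was analysed. The authors deposited the raw count of reads per gene for all 4 libraries, and a second table of WT 1 and cKO 1 with the same counts for the 35 FGF genes it holds. The submitters' processing notes name Bowtie2 2.2.3, TopHat2 2.0.12, HTSeq 0.6.0 and mm9, while 97.25% of the 27232 genes found in GENCODE M21 start or end within 1 base of its GRCm38 positions, so positions were read as GRCm38. Deposited fold changes, p-values, adjusted p-values, mean normalized counts and normalized CPM were not used. Blank rows (0.0403%) were left out.

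Counts were fitted with edgeR 4.0.16 in R 4.3.3 (TMM, filterByExpr, quasi-likelihood test, no covariate, Benjamini-Hochberg adjustment over 16145 genes). CPM used TMM-scaled library sizes, and exon lengths came from GENCODE M21. The procedure was run on simulated counts with large changes, a common spread for all genes and no library that stood apart. That run does not cover smaller changes or a library that stands apart as WT 1 does. With 2 libraries per group, precision is limited by the spread between libraries. Alternatives were DESeq2 1.42.0, other normalizations and filters, a stricter p of 0.01, the replicate block and leaving out each library.

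The members, marker lists and pathway list were chosen with earlier results of these data known. Values in every library are given for the receptors, the rostral ligands and Fgf2, the ETS factors and feedback inhibitors, genes with an unadjusted p under 0.05, with libraries of one label at least 2-fold apart, of highest CPM, or with groups that do not overlap. Kcne2, Otx2, Aqp1, Htr2c, Col1a1, Col1a2, Cdh5 and Flt1 are the marker genes with an unadjusted p under 0.05. Their values without WT 1 were added after the data were seen.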

Additional observations from a re-analysis of the deposited data

How the results depend on the processing

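With all 4 libraries kept, every alternative gave 0 FGF genes past the thresholds and 0 at an adjusted p under 0.05, and all 172 fold changes of FGF genes kept their direction and side of the threshold. Genes past the thresholds over the whole table numbered 131, against 65 with DESeq2, 72 under a minimum of 10 counts in each library, 405 with no filter and 14 at a p of at most 0.01. Those at an adjusted p under 0.05 numbered 0, against 65 with no filter. FGF genes at an unadjusted p under 0.05 numbered 1 (199 of all genes), against 2 with DESeq2 (127 of all genes) and 4 with no filter (758). The cause was not tested. The replicate block gave 208 genes past the thresholds, 5 at an adjusted p under 0.05 and 5 FGF genes at an unadjusted p under 0.05 (Etv1, Etv4, Spry1, Dusp6 and Spred1), where 535 of all 16145 genes had one. The labels tie the numbers to no litter or batch, and with only 2 pairs the data do not settle whether they pair the libraries. The correlation of same-numbered deviations was 0.108 over all genes and 0.498 over the 29 FGF genes.

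Leaving out 1 library assumes that the lone library of its group varies like the other group. It gave 104 to 531 genes past the thresholds, 0 to 116 at an adjusted p under 0.05, 0 to 3 FGF genes past the thresholds (Fgf17 without WT 1, Etv4, Spry1 and Fgf17 without WT 2, Etv1, Etv4 and Fgf3 without cKO 1), 1 to 6 at an unadjusted p under 0.05 (126 to 2542 of all genes, both highest without cKO 1) and a median of -0.299 to -0.0733. The direction turned in 23 of 116 values, in 15 genes, whose log2 fold changes ran from -1.26 to 1.53 (Fgf17), -2.02 to 0.69 (Fgf22), -0.84 to 0.23 (Fgf15), -0.53 to 0.014 (Fgf13), -0.59 to 0.070 (Fgf14), -0.38 to 0.12 (Fgfbp3), -0.21 to 0.029 (Spred3), -0.088 to 0.043 (Spred2), -0.16 to 0.13 (Fgf11), -0.073 to 0.094 (Fgfr2), -0.0038 to 0.023 (Fgfr1), -0.22 to 0.26 (Fgf18), -0.28 to 0.38 (Fgf9), -0.18 to 0.55 (Fgf2) and -0.20 to 1.102 (Fgf3). Depth limits the 8 genes not tested.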
